A study of Caenorhabditis elegans with 16 samples.

Results

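The respiratory chain genes described here are 46 protein-coding genes among the 46726 genes of a count table from total RNA of mixed-stage Caenorhabditis elegans embryos. They were chosen by gene name: a symbol beginning with nuo-, nduo-, ndfl-, sdha-, sdhb-, sdhd-, ucr-, cyc-, cco-, cox-, ctb-, ctc-, atp-, asb- or asg-, or the symbol gas-1, isp-1 or mev-1. These names found 35 genes, of which 34 lie in the nucleus and 1, ctb-1, lies on the mitochondrial chromosome. The table lists the other 11 protein-coding genes of the mitochondrial chromosome only by sequence name, so they were added by their position and are named here by their RefSeq names, with ctb-1 written as CYTB. The 46 genes thus comprise 12 mitochondrially encoded and 34 nuclear-encoded members, and 45 of them had enough counts to be tested. The exception was cyc-2.2, which had 1 to 11 counts in a library. Some chain subunits carry other names in the table and were not chosen by the rule, and they are described as separate lists.

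The embryos were of 4 genotypes with 4 libraries each, numbered 2 to 5 in the labels and labelled as independent biological replicates. The wild type (WT) was the N2 strain, edc-3 was strain RB1311 with the allele edc-3(ok1427), edc-4 was strain FD135 with the allele edc-4(qe49), and the double mutant was strain FD146 with the alleles edc-3(ok1427) and edc-4(qe49), as the sample labels give them. The description of the whole study instead gives FD135 as the strain of the double mutant, and the sample labels were followed here. All were untreated and grown side by side at 16 °C from synchronized first-stage larvae to gravid adults, whose embryos were collected by bleaching. EDC-3 and EDC-4 are proteins that help remove the 5' cap of mRNAs, and the study asked how their loss alters the embryo's transcripts. Each genotype is 1 strain, so a difference between genotypes includes any other difference between the strains. A library pools embryos of many ages, so in these bulk samples fewer cells of a type and less RNA per cell cannot be told apart.

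Library totals were 34089540 to 52893968 counts. The targeted gene edc-4 was at 168 ± 20.5 CPM in WT (a gene's counts relative to its library's total, scaled by TMM, the trimmed mean of M-values), 31.9 ± 2.62 in the edc-4 strain and 26.1 ± 4.36 with both alleles (SD, n = 4). Reads of edc-3 were still counted in the strains with the ok1427 allele, at 62.3 ± 5.55 CPM in the edc-3 strain and 72.8 ± 7.49 in the double mutant, beside 85.4 ± 11.54 in WT, and a count over the whole gene does not show which part was deleted. Markers of embryos were present: 30 of 30 muscle genes, 32 of 32 early zygotic genes and 34 of 36 maternal genes passed the filter on low counts. Vitellogenins, the yolk proteins of the maternal intestine, summed to 0.989 to 2.74 CPM, and a list of sperm genes summed to 83.9 to 97.1 CPM. The sperm list holds genes whose symbols begin with msp- or spe-. Of these lists, 1 of 6 vitellogenins and 19 of 64 sperm genes passed the filter.

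The respiratory chain of the inner mitochondrial membrane passes electrons from NADH (through complex I) or succinate (through complex II) by way of complex III and cytochrome c to oxygen at complex IV, and ATP synthase (complex V) uses the proton gradient this builds. Complexes I, III, IV and V are assembled from products of both genomes, whereas complex II and cytochrome c are encoded in the nucleus alone. Mitochondrial mRNAs are transcribed and translated inside the organelle, without a 5' cap of the nuclear kind, and the worm embryo inherits its mitochondria from the oocyte.

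The nuclear-encoded and the mitochondrially encoded members differed in how far they varied between libraries. The nuclear-encoded members held nearly the same summed level in every library, while the mitochondrially encoded members varied widely between libraries of 1 genotype, most of all in WT. Summed over the 12 genes, the mitochondrial mRNAs reached 5437, 7047, 15033 and 12887 for WT, 9096, 7329, 11170.2 and 11706 for edc-3, 7901, 6901, 9208 and 10531 for edc-4, and 6594, 5934, 9278 and 7806 for the double mutant, in CPM and with the libraries in the order 2 to 5, as throughout. WT held both the highest value, in library 4, and the lowest, in library 2, so every mutant value lay inside the WT range. The means were 10101 ± 4589 for WT, 9825 ± 2009 for edc-3, 8635 ± 1578 for edc-4 and 7403 ± 1471 for the double mutant (SD, n = 4), and the double mutant's mean was 73.3% of the WT mean. The 34 nuclear-encoded genes summed to 4929, 4410.1, 4224 and 4425 for WT, 4615, 4803, 4693 and 4099.6 for edc-3, 4845, 4936, 4556 and 4733 for edc-4, and 4662, 4807, 4345 and 4209 for the double mutant, in the same unit and order. These 16 values lay within a 1.204-fold range, beside 2.77-fold for the mitochondrial sum, and the ratio of the mitochondrial to the nuclear sum ran from 1.103 in WT library 2 to 3.56 in WT library 4.

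**Figure D1:**
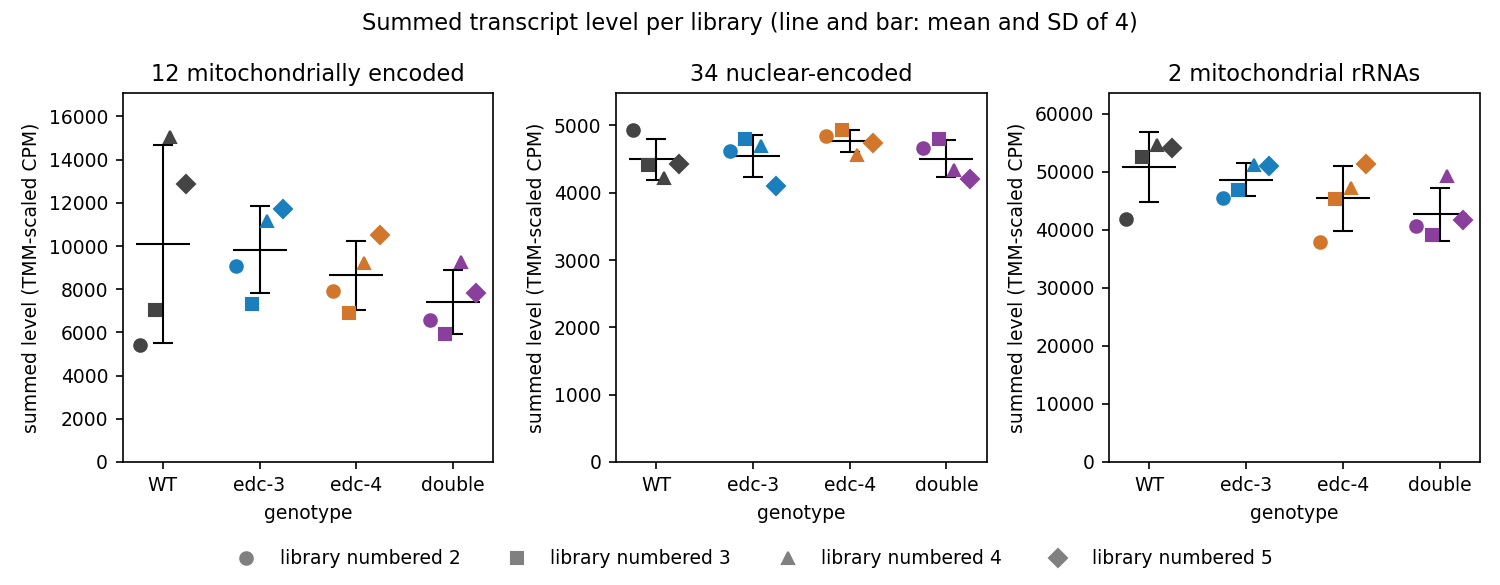
Summed level per library (TMM-scaled CPM, linear axes from 0) of the 12 mitochondrially encoded members, the 34 nuclear-encoded members and the 2 mitochondrial rRNAs, by genotype. Marker shapes are the library numbers, the line and bar are the mean and SD of 4 libraries, and the mitochondrial sums of WT spread from 5437 to 15033 while all nuclear sums lie between 4099.6 and 4936.

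No member passed the threshold in any comparison of genotypes (edgeR's quasi-likelihood test, Benjamini-Hochberg adjusted p under 0.05 over 16880 tested genes). Few genes of any kind did: 0.142% of all tested genes were called in edc-3 against WT, 0.142% in edc-4 against WT and 0.207% in the double mutant against WT. The double mutant against edc-3 gave 0.0355%, the double mutant against edc-4 0.0296% and the interaction of the alleles 0.0355%. Averaged over both backgrounds, the edc-3 allele gave 0.148% and the edc-4 allele 0.195%. At these shares 0 of 45 members is close to the background and is no result about the members. At an unadjusted p under 0.05 there were 0, 0 and 3 of 45 members in edc-3, edc-4 and the double mutant against WT, beside 2.65%, 4.98% and 11.45% of all tested genes. DESeq2 also called 0 members in every comparison, and gave 0, 0 and 2 members at an unadjusted p under 0.05 in the same 3 comparisons.

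Among the mitochondrially encoded genes, the log2 fold changes against WT were mostly below 0 and largest in the double mutant, without passing the test. Their median was -0.04 for edc-3, -0.19 for edc-4 and -0.45 for the double mutant, with 9, 10 and 11 of 12 genes below 0. The nuclear-encoded members had medians of 0.02, 0.10 and 0.02 over 33 tested genes, and all tested genes 0.00, 0.00 and -0.01. The mitochondrial minus the nuclear median was -0.06, -0.29 and -0.46, and these 3 values share the same WT libraries. The difference for the double mutant was -0.42 against edc-3 and -0.20 against edc-4. A related measure is the median log2 level of the mitochondrial minus that of the nuclear members in a single library. Its pooled SD within genotypes was 0.507. A single WT library moved the 3 differences of median fold changes against WT. Without WT library 4 they became 0.24, -0.03 and -0.22, and without WT library 2 they became -0.30, -0.56 and -0.71.

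**Figure D2:**
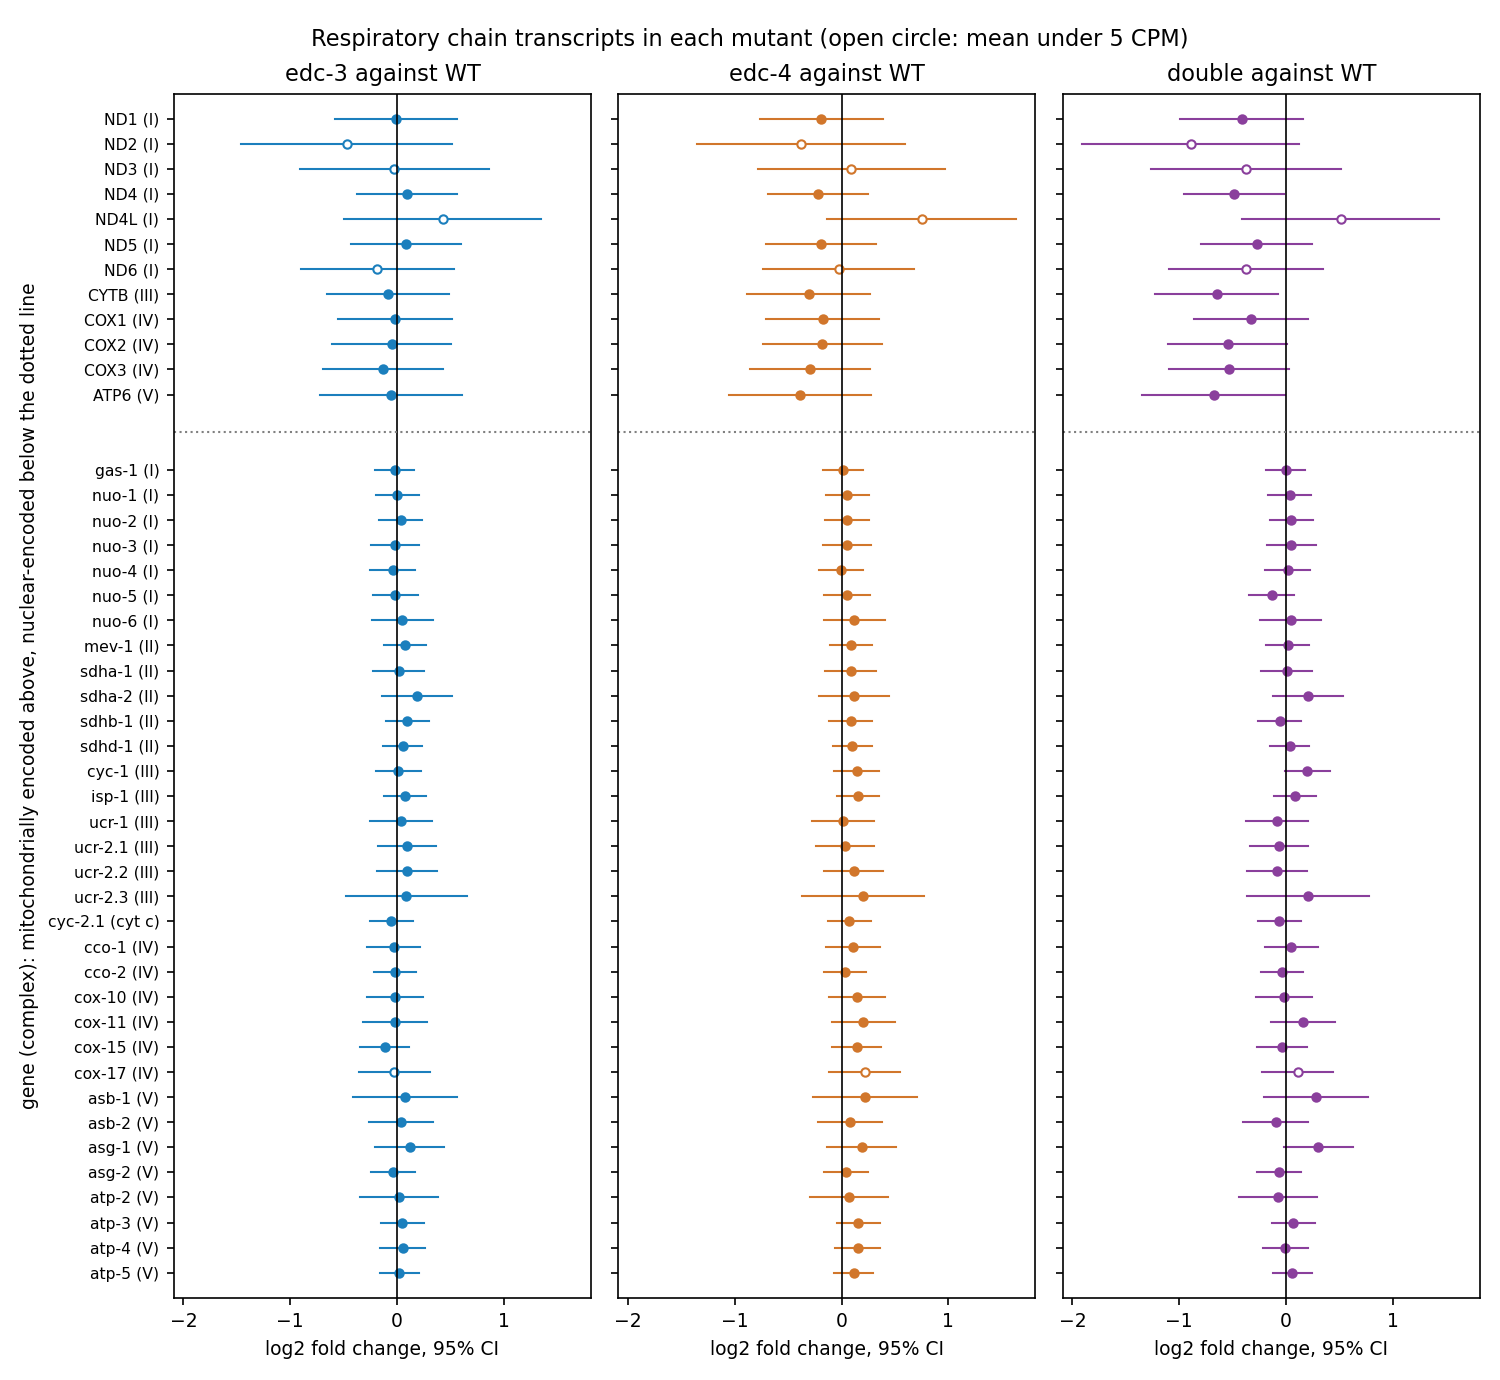
Log2 fold change against WT with its 95% confidence interval for the 45 tested members in edc-3, edc-4 and the double mutant, mitochondrially encoded genes above the dotted line and nuclear-encoded genes below it, with the complex in brackets. Open circles are genes with a mean under 5 CPM. The mitochondrial intervals are wide and reach below 0, with a median change of -0.45 in the double mutant, and the nuclear changes lie within -0.13 to 0.30.

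Complex I, the NADH dehydrogenase, takes 7 subunits from the mitochondrial genome, all parts of its membrane arm. Of these, ND4 (positions 6506 to 7808 of the mitochondrial chromosome in WBcel235, plus strand) had 196, 274, 529.6 and 444 for WT, 373, 310.2, 398 and 456 for edc-3, 304, 270.5, 296 and 369 for edc-4, and 231, 233, 295 and 275 for the double mutant, in CPM. All 4 double-mutant values lay below all 4 edc-3 values, and WT again held the lowest and the highest value. The log2 fold change was -0.48 ± 0.22 (SE) against WT (adjusted p = 0.425) and -0.57 ± 0.22 (SE) against edc-3 (adjusted p = 0.900, edgeR). ND4 was the only 1 of 45 members whose groups did not overlap in the double mutant against edc-3, where 4.39% of all tested genes did so. In the other comparisons 0 of 45 members were free of overlap, where 1.91% of all tested genes were so in edc-3 against WT, 2.3% in edc-4 against WT, 7.43% in the double mutant against WT and 2.1% in the double mutant against edc-4. ND1 (positions 1763 to 2635) had 269, 376, 805 and 730.4 for WT, 474, 445, 586 and 660.4 for edc-3, 411, 369, 530.3 and 603 for edc-4, and 339, 324, 503 and 471 for the double mutant, in CPM. Its order over the libraries was close to that of ND4, with WT libraries 2 and 4 at the ends. ND5 (positions 11691 to 13272), whose gene directly follows that of ND3, was at 568 ± 232 CPM for WT, 603 ± 106 for edc-3, 496 ± 96.9 for edc-4 and 469 ± 103.6 for the double mutant (means ± SD, n = 4). Their log2 fold changes in the double mutant were -0.41 ± 0.27 (SE) and -0.27 ± 0.25 (SE), with adjusted p of 0.516 and 0.605 (edgeR).

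The other 4 mitochondrial subunits of complex I, ND2, ND3, ND4L and ND6, were counted at levels far below their neighbours. ND3 had 55 to 347 counts in a library, ND6 46 to 239, ND2 10 to 86 and ND4L 3 to 19. Per kilobase of exon, ND3 stood at 9.55 CPM and ND5, which starts at its last base, at 338 CPM. ND2, between ATP6 and CYTB, stood at 0.841 CPM per kilobase, beside 634 and 1059.7. Together these 4 genes made up at most 0.109% of the mitochondrial sum in any library. In the annotation ND2 shares 29 of its 881 bases with flanking tRNA genes, and ND3, ND4L and ND6 share 1 base each with a neighbour. The 22 mitochondrial tRNA genes had 0 counts in every library. Whether read mapping or counting set these low values was not tested. ND4L, with the lowest counts of the 4, was the 1 mitochondrial gene with a fold change above 0 in the double mutant, at 0.51 ± 0.44 (SE), and ND2 had the lowest, at -0.89 ± 0.48 (SE).

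In complex III the mitochondrial genome supplies cytochrome b, encoded by CYTB (positions 4504 to 5621, plus strand). Its levels were 709, 915, 2203 and 1764 for WT, 1301, 910.2, 1505 and 1567 for edc-3, 1114, 912, 1137 and 1350.4 for edc-4, and 829, 733, 1089.9 and 916 for the double mutant, in CPM. The lowest value and the highest were both in WT, and the double mutant's 4 values lay between 733 and 1089.9. The log2 fold change was -0.65 ± 0.27 (SE) in the double mutant, with a 95% interval of -1.22 to -0.07, an unadjusted p of 0.0291 and an adjusted p of 0.415 (edgeR). It was -0.08 ± 0.27 (SE) in edc-3 and -0.31 ± 0.27 (SE) in edc-4.

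Complex IV, cytochrome c oxidase, has its catalytic core from the mitochondrial genes COX1 and COX2, with COX3 beside them. COX1 (positions 7827 to 9428) was the most abundant member of either genome, with 2256, 2638, 5777 and 5035 for WT, 3647, 2896, 4384 and 4569.5 for edc-3, 3369, 2675, 3644 and 4195 for edc-4, and 2824, 2576, 3896 and 3202 for the double mutant, in CPM. Its log2 fold change was -0.33 ± 0.25 (SE) in the double mutant, with a 95% interval of -0.86 to 0.20 and an adjusted p of 0.557 (edgeR). COX2 (positions 9649 to 10348) had 610.4, 911, 1683 and 1434 for WT, 998, 852, 1251 and 1372 for edc-3, 838, 824, 1180.2 and 1254 for edc-4, and 678, 591, 1090.1 and 822 for the double mutant, in CPM. COX3 (positions 5678 to 6449) had 848, 1188, 2493 and 2195 for WT, 1348, 1141, 1827 and 1838 for edc-3, 1155, 1183, 1469.8 and 1684 for edc-4, and 1066, 922, 1454 and 1209 for the double mutant, in CPM. For all 3 genes WT library 4 was the highest, and the double-mutant values lay inside the WT range for COX1 and COX3. In the double mutant COX2 had a log2 fold change of -0.54 ± 0.27 (SE) and COX3 of -0.53 ± 0.27 (SE), with adjusted p of 0.440 and 0.447 (edgeR).

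The only mitochondrially encoded subunit of ATP synthase in the table was ATP6 (positions 2634 to 3235), subunit a of the proton channel. It had 248, 284, 730.2 and 561 for WT, 386, 300.3, 529 and 538 for edc-3, 250.4, 276, 407 and 455 for edc-4, and 224, 188, 386 and 343 for the double mutant, in CPM. Double-mutant library 3 was the lowest and WT library 4 the highest, a 3.89-fold range, the widest of the 8 mitochondrial genes with a mean of at least 5 CPM. The log2 fold change was -0.68 ± 0.32 (SE) in the double mutant, with a 95% interval of -1.34 to -0.01 and an adjusted p of 0.431 (edgeR). Averaged over both backgrounds the edc-4 allele gave -0.51 ± 0.22 (SE) for ATP6, -0.44 ± 0.19 (SE) for CYTB and -0.40 ± 0.16 (SE) for ND4, with adjusted p of 0.456, 0.456 and 0.424 (edgeR). The edc-3 allele gave -0.17, -0.21 and -0.09 for the same genes. For the interaction of the alleles the mitochondrial median was -0.22 and the nuclear median -0.08, beside -0.02 for all tested genes.

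Per kilobase of exon, the mitochondrial mRNAs kept nearly the same order in all 16 libraries. Mean levels were 2247 CPM per kilobase for COX1, 1864 for COX3, 1463 for COX2, 1059.7 for CYTB, 634 for ATP6, 565 for ND1, 338 for ND5 and 252 for ND4. Each of these genes stood above the next in 16 of 16 libraries, except that ATP6 stood above ND1 in 12 of 16. By genotype, ATP6 was the higher in 4 of 4 libraries of WT, 3 of edc-3, 3 of edc-4 and 2 of the double mutant, and the difference between the levels was not tested. As shares of the mitochondrial sum, COX1 made up 37.4% to 43.4%, COX3 14.6% to 17.1% and CYTB 11.7% to 14.7%. The share of COX1 thus moved 1.16-fold over the libraries while its CPM moved 2.56-fold. This was the narrowest range of share, and COX1 is itself a large part of the sum. Of the 8 genes with a mean of at least 5 CPM, ATP6 had the widest, 1.53-fold in share and 3.89-fold in CPM. These 8 mRNAs thus went up and down largely together, though not in fixed proportion. The shares of the 4 low genes moved further, from 1.64-fold for ND6 to 4.42-fold for ND4L. By genotype, COX1 held 39.1 ± 1.73% of the sum in WT and 42.3 ± 1.04% in the double mutant, and ATP6 held 4.45 ± 0.348% and 3.78 ± 0.591% (SD, n = 4), with no test made.

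**Figure D3:**
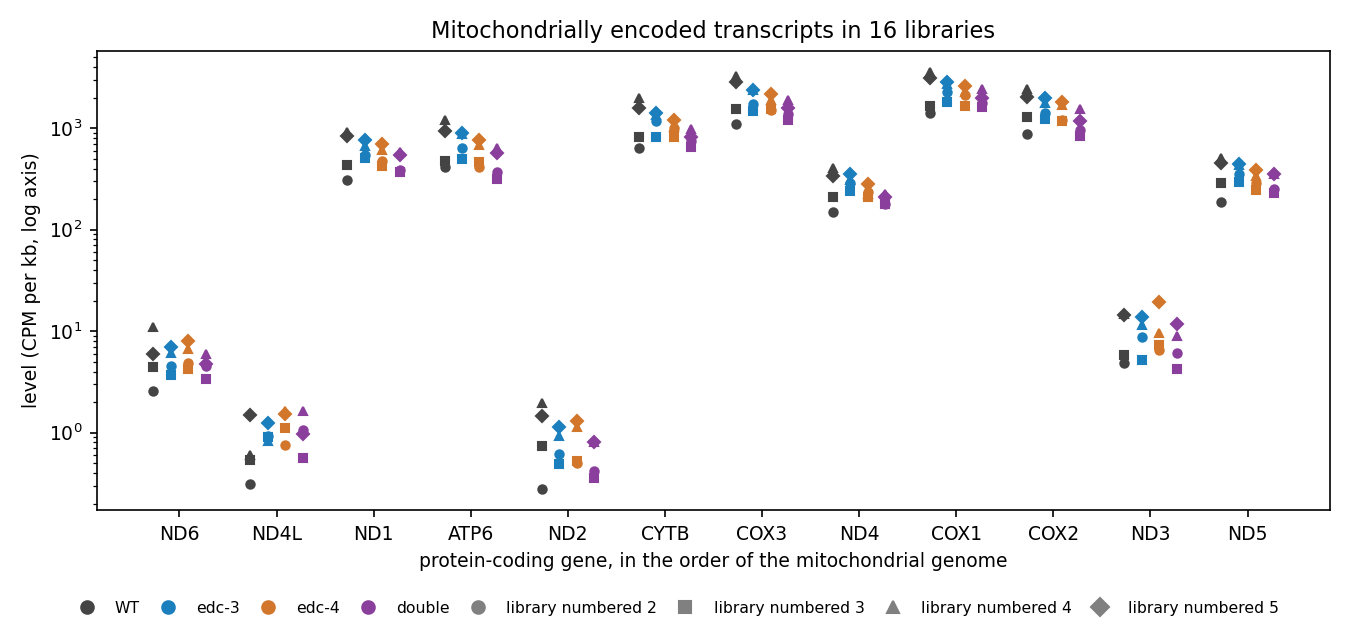
Level of each mitochondrially encoded protein gene (CPM per kilobase of exon, log axis) in 16 libraries, with the genes in their order on the mitochondrial genome, colours for genotypes and marker shapes for library numbers. ND6, ND4L, ND2 and ND3 lie between 0.277 and 19.3 CPM per kilobase, and the other 8 genes between 151 and 3606.

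Within every genotype the mitochondrial level varied with the number of the library. In each of the 4 genotypes, libraries 4 and 5 were both above libraries 2 and 3 in the mitochondrial sum, and likewise in the ratio to the nuclear sum. The lower of libraries 4 and 5 was at 12887 CPM and the higher of 2 and 3 at 7047 CPM in WT. In edc-3 these values were 11170.2 and 9096 CPM, in edc-4 9208 and 7901 CPM, and in the double mutant 7806 and 6594 CPM. Gene by gene, 10 of 12 mitochondrial members showed this order in all 4 genotypes, as did 0 of 34 nuclear members and 85 of 16880 tested genes (0.504%). The mitochondrial mRNAs went up and down largely together, so these 10 genes are not 10 separate observations. The pattern was seen after the values were known and was not tested, and the labels do not say that a number marks a shared culture, day or run. Without the 4 libraries numbered 4, the mitochondrial minus nuclear median was 0.17 for edc-3, -0.10 for edc-4 and -0.29 for the double mutant, again with 0 members called.

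The 2 mitochondrial ribosomal RNAs moved less than the mRNAs. They summed to 41839, 52502, 54603 and 54129 for WT, 45547, 46827, 51233 and 50957 for edc-3, 37917, 45261, 47274 and 51286 for edc-4, and 40660.3, 39057, 49306 and 41744 for the double mutant, in CPM, a 1.44-fold range. Libraries 4 and 5 were again above libraries 2 and 3 in every genotype, with WT library 2 far below the other 3 WT libraries. The median log2 fold change of the 2 rRNAs was -0.08 for edc-3, -0.17 for edc-4 and -0.26 for the double mutant, with 0 of 2 called. The libraries were prepared from total RNA after depletion of ribosomal RNA, so an rRNA count is what that step left. The measure of embryo age was the mean log2 CPM of muscle genes minus that of early zygotic genes. In WT this measure shared the order by number, with libraries 4 and 5 above libraries 2 and 3. In edc-3, edc-4 and the double mutant it did not. It was 4.86 in WT library 4, the highest of all, and 2.497 in double-mutant library 4, the lowest. With this measure as a covariate the mitochondrial minus nuclear median was -0.05, -0.30 and -0.43 in edc-3, edc-4 and the double mutant, and 0 members were called (edgeR). In that fit 0 of 12 mitochondrial members changed sign in the double mutant against WT, while 12 of 21 named nuclear members did. The median fold change in the main fit was 0.02 for 33 nuclear members and -0.45 for the mitochondrial ones. A sign near 0 turns more readily, so these counts do not show which set depended more on embryo age.

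**Figure D4:**
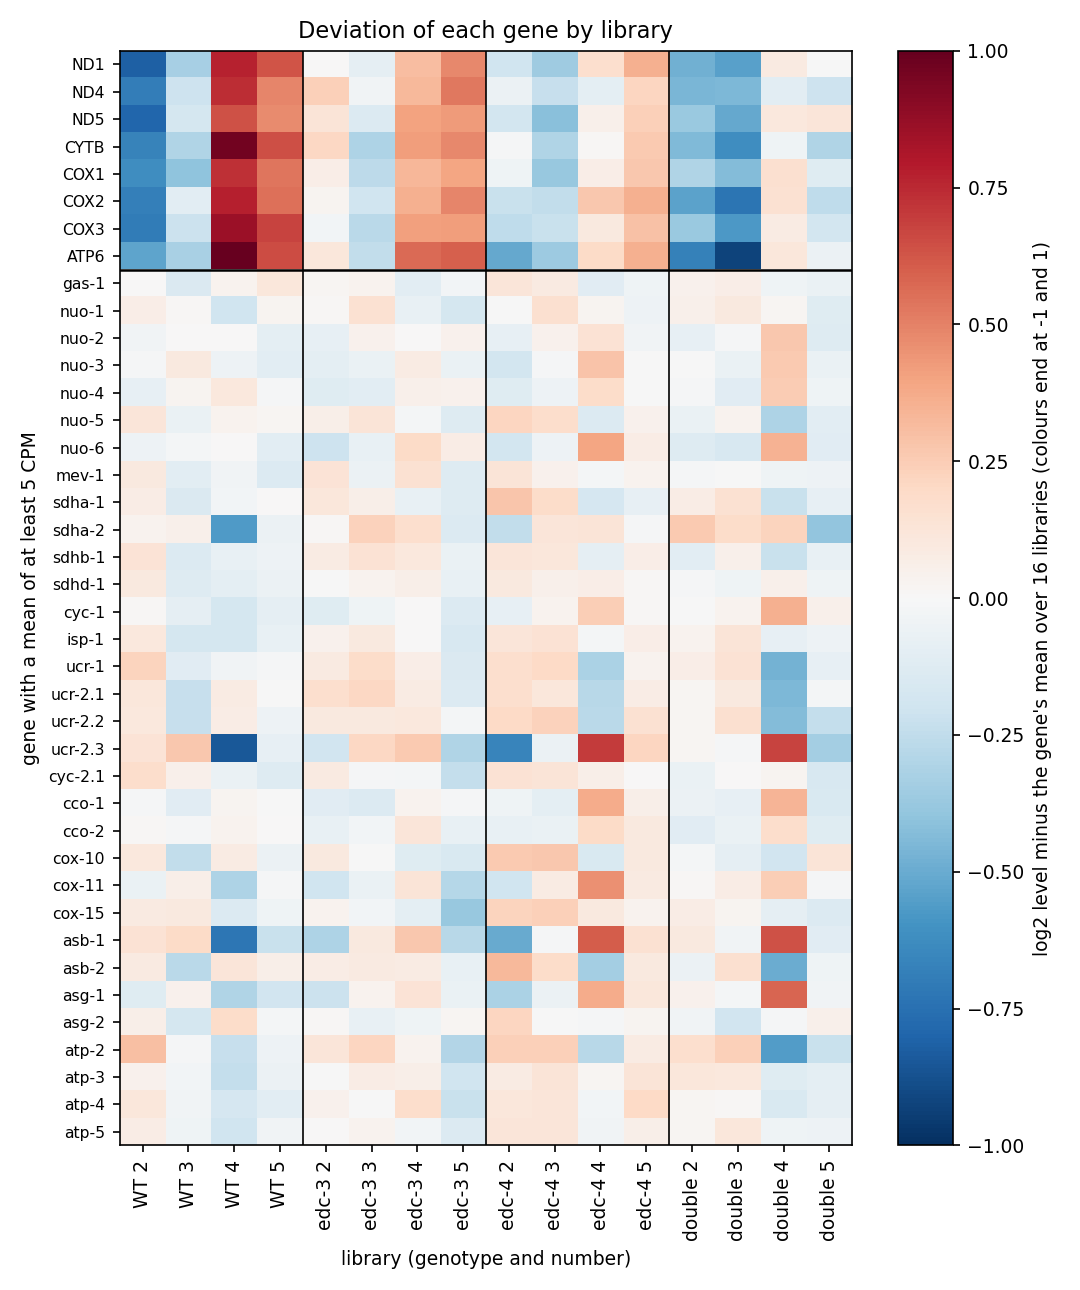
Deviation of each of 40 members with a mean of at least 5 CPM from its own mean over the 16 libraries (log2 scale, colours end at -1 and 1, red above the mean), by library, with mitochondrially encoded genes above the line. The 8 mitochondrial rows rise and fall as a block, and 7 nuclear members (asb-1, asb-2, asg-1, atp-2, sdha-2, ucr-1 and ucr-2.3) lie more than 0.5 from the mean of the other 3 libraries of the genotype in a library numbered 4.

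The median spread between libraries of 1 genotype was several times wider for the mitochondrial than for the nuclear members. For the 8 mitochondrial genes with a mean of at least 5 CPM the within-genotype SD was 0.370 to 0.537 on the log2 scale, with a median of 0.445. The median was 0.127 for 32 nuclear members, 0.118 for 70 nuclear genes of mitochondrial ribosomal proteins and 0.218 for all 9613 tested genes at this level. The nuclear members ran from 0.0654 to 0.456, and ucr-2.3 (0.456) and asb-1 (0.382) lay inside the mitochondrial range. In the double mutant against WT, the 95% interval of the log2 fold change stayed within 0.5 of 0 for 29 of 33 nuclear members and for 0 of 12 mitochondrial ones. The intervals of the mitochondrial mRNAs thus reached beyond a change of that size, and those of most nuclear members did not.

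The nuclear-encoded subunits of complex I had the narrowest range of summed level among the nuclear parts of complexes I to V. Their 7 genes summed to 852 to 959 CPM over the 16 libraries, a 1.13-fold range. nuo-1, which encodes the subunit that binds NADH, was the highest per kilobase at 123 CPM, and gas-1, the 49 kDa core subunit, was the lowest at 63.7 CPM. nuo-1 (chromosome II, 11097837 to 11100146) was at 195 ± 15.5 CPM for WT, 195 ± 19.2 for edc-3, 202 ± 12.8 for edc-4 and 199 ± 12.9 for the double mutant (means ± SD, n = 4). gas-1 (X, 15586786 to 15590397) was at 108 ± 8.102 CPM for WT, 106 ± 4.73 for edc-3, 109 ± 8.22 for edc-4 and 108 ± 4.74 for the double mutant (means ± SD, n = 4), and its log2 fold change was -0.02 ± 0.09 (SE), 0.01 ± 0.09 (SE) and 0.00 ± 0.09 (SE) for edc-3, edc-4 and the double mutant. Of the other subunits, nuo-5, the large iron-sulphur subunit, had the lowest fold change in the double mutant, at -0.13 ± 0.10 (SE) (adjusted p = 0.551, edgeR). For the interaction of the alleles, nuo-4 and nuo-3, both accessory subunits, had among the highest values of the members with at least 5 CPM, at 0.06 ± 0.14 (SE) and 0.02 ± 0.15 (SE) (adjusted p = 0.9999 and 0.9999, edgeR). The complex I median was -0.02 for edc-3, 0.05 for edc-4 and 0.03 for the double mutant.

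Complex II, the succinate dehydrogenase, is encoded by the nucleus alone. sdhd-1, a membrane anchor, was the steadiest gene among the members, with 46.4, 39.6, 40.4 and 41.5 for WT, 43.3, 44.3, 45.2 and 41.1 for edc-3, 46.3, 44.9, 45.4 and 43.7 for edc-4, and 43.0, 42.1, 44.8 and 42.0 for the double mutant, in CPM. Its 16 values lay within a 1.17-fold range, and its within-genotype SD of 0.0654 on the log2 scale was lower than that of all but 0.728% of genes with at least 5 CPM. The iron-sulphur subunit sdhb-1 was at 80.6 ± 6.87 CPM for WT, 86.1 ± 5.24 for edc-3, 85.4 ± 5.72 for edc-4 and 77.3 ± 6.01 for the double mutant (means ± SD, n = 4), and the other anchor, mev-1, at 41.4 ± 3.13 CPM for WT, 43.5 ± 4.15 for edc-3, 44.1 ± 1.902 for edc-4 and 41.8 ± 0.658 for the double mutant (means ± SD, n = 4). The flavoprotein sdha-1 was at 120.5 ± 7.39 CPM for WT, 122 ± 9.64 for edc-3, 128 ± 18.7 for edc-4 and 121 ± 13.9 for the double mutant (means ± SD, n = 4). Its relative sdha-2 was lower, with 58.4, 58.9, 38.5 and 54.6 for WT, 57.5, 66.6, 63.98 and 51.9 for edc-3, 48.0, 62.0, 62.2 and 56.5 for edc-4, and 68.1, 64.8, 66.4 and 43.3 for the double mutant, in CPM. The sdha-2 groups overlapped, and the log2 fold change was 0.19 ± 0.16 (SE) in edc-3 and 0.20 ± 0.16 (SE) in the double mutant (adjusted p = 0.9999 and 0.554, edgeR). The latter became 0.04 with the embryo-age covariate and 0.03 without the libraries numbered 4. The complex II median log2 fold change was 0.07, 0.09 and 0.01 in edc-3, edc-4 and the double mutant.

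In complex III the nuclear genes encode the Rieske iron-sulphur protein (isp-1), cytochrome c1 (cyc-1) and the core proteins (ucr-1 and the ucr-2 genes). isp-1 was the highest of them per kilobase, at 163 CPM, and was at 152 ± 14.4 CPM for WT, 160.3 ± 11.95 for edc-3, 169 ± 8.35 for edc-4 and 162 ± 10.9 for the double mutant (means ± SD, n = 4). cyc-1 (chromosome I, 8022674 to 8024422) had 218, 203, 191 and 203 for WT, 198, 210.2, 217 and 197 for edc-3, 204, 222, 256 and 218 for edc-4, and 216, 221, 277 and 224 for the double mutant, in CPM. Library 4 of the double mutant and library 4 of edc-4 held the highest 2 values, and the remaining double-mutant values lay between 216 and 224. Its log2 fold change was 0.20 ± 0.10 (SE) in the double mutant (adjusted p = 0.444) and 0.17 ± 0.07 (SE) for the edc-4 allele (adjusted p = 0.451, edgeR). With the embryo-age covariate these became 0.07 and 0.09, and without the libraries numbered 4 they became 0.08 and 0.09. The gene overlaps C54G4.7 on the other strand, and the sources used here do not say whether counting used strand.

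Cytochrome c, the carrier between complexes III and IV, is encoded by cyc-2.1 and cyc-2.2. cyc-2.1 was the highest nuclear member per kilobase, at 491 CPM, followed by atp-2 at 460.1 CPM, and stood above it in 12 of 16 libraries. Its level was 272 ± 25.8 CPM for WT, 262 ± 24.6 for edc-3, 285 ± 12.98 for edc-4 and 260.3 ± 15.2 for the double mutant (means ± SD, n = 4). cyc-2.2 stood at 0.208 CPM per kilobase, with CPM values from 0.0203 to 0.304, and was not tested.

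The nuclear genes of complex IV in the set are the structural subunits cco-1 and cco-2 and the assembly factors cox-10, cox-11, cox-15 and cox-17. cco-2 stood at 341 CPM per kilobase and was at 255 ± 3.73 CPM for WT, 251 ± 16.4 for edc-3, 261 ± 23.6 for edc-4 and 249 ± 25.1 for the double mutant (means ± SD, n = 4). The assembly factors were lower, from 10.6 CPM per kilobase for the copper chaperone cox-17 to 21.2 for the haem A synthase cox-15. In edc-3, cox-15 had the lowest log2 fold change of the nuclear members, at -0.12 ± 0.11 (SE), and in edc-4 cox-11, which delivers copper, was at 0.20 ± 0.14 (SE) (adjusted p = 0.9999 and 0.831, edgeR). The complex IV medians were -0.02, 0.15 and 0.02 in edc-3, edc-4 and the double mutant.

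Among the 8 nuclear genes of ATP synthase, atp-2, the catalytic beta subunit, was the most abundant nuclear member in CPM. Its levels were 1081, 867, 745 and 847 for WT, 954, 1017, 899 and 714 for edc-3, 1034, 1032, 723 and 928 for edc-4, and 984, 1033, 594 and 751 for the double mutant. WT library 2 was the highest and double-mutant library 4 the lowest, and the log2 fold change was -0.07 ± 0.17 (SE) in the double mutant. The stalk subunits atp-3, atp-4 and atp-5 were at 228, 241 and 250.3 CPM per kilobase. asg-1 (chromosome I, 8692946 to 8693468), a subunit g gene, had the highest log2 fold change of the nuclear members in the double mutant, at 0.30 ± 0.15 (SE) (adjusted p = 0.448, edgeR). This became 0.02 with the embryo-age covariate and 0.08 without the libraries numbered 4. Its levels were 55.5, 62.5, 49.1 and 53.0 for WT, 52.2, 62.2, 66.5 and 58.0 for edc-3, 48.8, 58.1, 78.4 and 65.6 for edc-4, and 62.3, 59.6, 90.7 and 59.2 for the double mutant, in CPM. Library 4 of the double mutant was far above the other 3, whose values overlapped those of WT, and the gene overlaps K07A12.5 on the other strand. asg-1 lies 87.8 kb from edc-3, nearer to a targeted gene than any other member, and cyc-1 lies 578 kb from edc-3. In edc-3 against WT asg-1 was at 0.12 ± 0.15 (SE). The other 5 members on chromosome I lie 1.18 Mb or more from edc-3 and edc-4. The complex V medians were 0.04, 0.13 and 0.03 in edc-3, edc-4 and the double mutant.

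Some related genes for 1 subunit changed in ratio between libraries. asb-1 and asb-2 both encode subunit b of the ATP synthase stalk, and asb-1 is known as the form of the germ line. asb-1 (chromosome III, 4594543 to 4595821) had 78.0, 80.5, 42.7 and 60.4 for WT, 56.8, 75.4, 84.7 and 58.0 for edc-3, 49.5, 69.8, 107 and 78.1 for edc-4, and 75.5, 68.6, 109.6 and 65.1 for the double mutant, in CPM. WT library 4 was the lowest and library 4 of the double mutant the highest, so the groups overlapped, and the log2 fold change in the double mutant was 0.29 ± 0.23 (SE) (adjusted p = 0.574, edgeR). Its sign turned to -0.13 with the embryo-age covariate and -0.07 without the libraries numbered 4. In edc-4 it turned from 0.22 to -0.06 and -0.14, in the same order. The ratio of asb-1 to asb-2 counts was 0.415, 0.551, 0.223 and 0.328 for WT, 0.306, 0.402, 0.453 and 0.345 for edc-3, 0.224, 0.348, 0.767 and 0.414 for edc-4, and 0.445, 0.348, 0.874 and 0.379 for the double mutant. It was lowest in WT library 4 and highest in library 4 of the double mutant, a 3.92-fold range within which all other libraries fell.

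asb-2 (X, 4469766 to 4471476) had 188, 146.1, 192 and 184 for WT, 186, 188, 187 and 168 for edc-3, 221, 201, 139.8 and 189 for edc-4, and 169.6, 197, 125 and 172 for the double mutant, in CPM, with its lowest values in library 4 of the double mutant and of edc-4. Library 4 of the double mutant also held the highest ratio for other pairs with 1 gene on an autosome and 1 on the X chromosome. ucr-2.3 (chromosome III, 879860 to 881458) had 49.2, 53.8, 24.8 and 42.1 for WT, 39.1, 51.6, 53.6 and 36.2 for edc-3, 28.3, 42.9, 72.5 and 51.8 for edc-4, and 45.2, 44.4, 71.5 and 35.2 for the double mutant, in CPM, the widest range of any nuclear member with at least 5 CPM. The gene overlaps zer-1 on the other strand. Its log2 fold change in the double mutant was 0.21 ± 0.27 (SE), and turned to -0.29 with the embryo-age covariate and -0.22 without the libraries numbered 4. Its ratio to ucr-2.1 (X), both of the core protein 2 family, ran from 0.240 in WT library 4 to 0.999 in library 4 of the double mutant. For sdha-2 (I) over sdha-1 (X) it ran from 0.320 to 0.634 in the same 2 libraries. For asg-1 (I) over asg-2 (X) it ran from 0.963 in edc-4 library 2 to 2.11 in library 4 of the double mutant. The pair on the X chromosome alone, ucr-2.2 over ucr-2.1, kept within 0.522 to 0.661. The ratio of the asb genes was 0.379 ± 0.139 in WT and 0.512 ± 0.245 in the double mutant (SD, n = 4), a difference smaller than the SD of the double mutant.

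**Figure D5:**
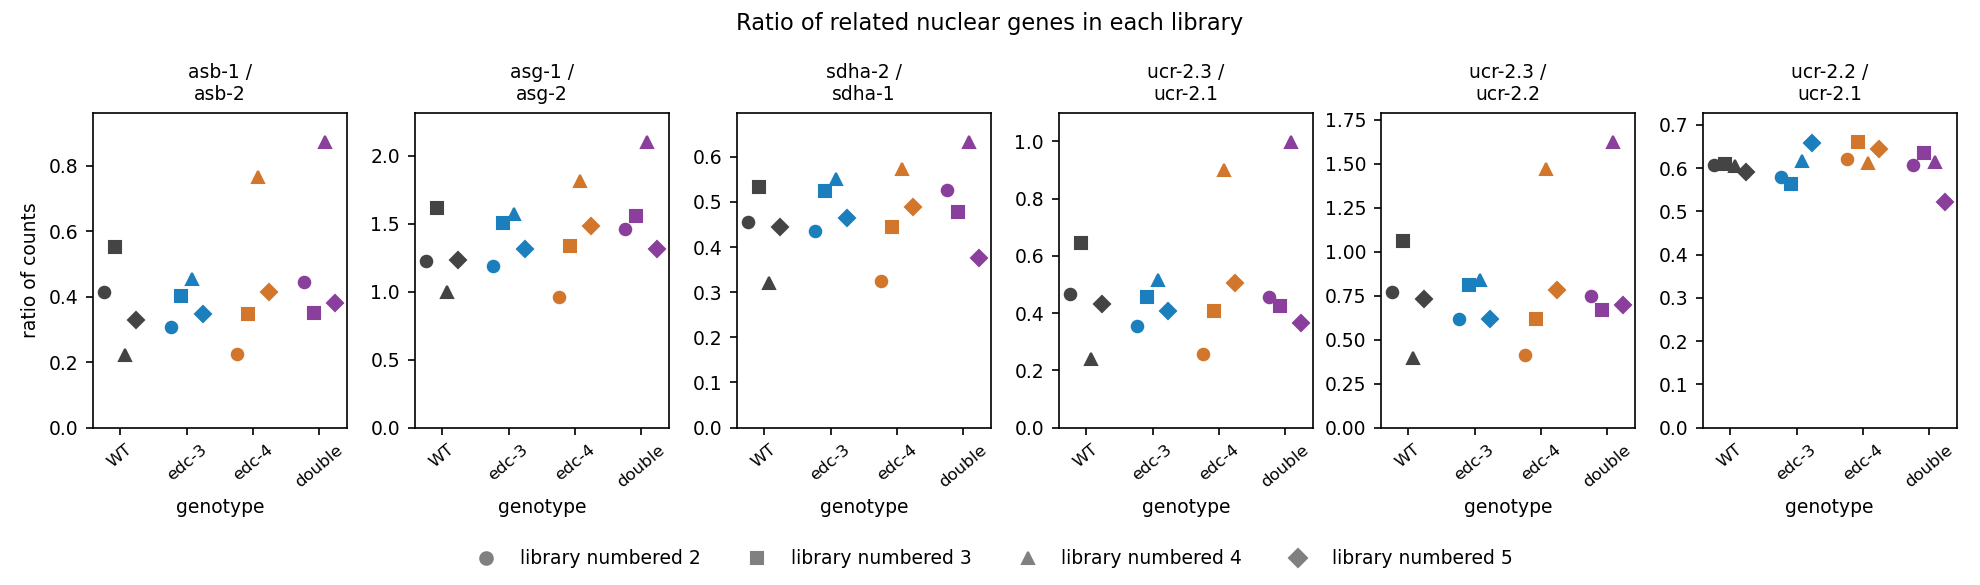
Ratio of counts of related nuclear genes in each library (linear axes from 0), by genotype, with marker shapes for library numbers. In the first 5 panels WT library 4 or edc-4 library 2 is the lowest and double-mutant library 4 the highest, as with asb-1 over asb-2 from 0.223 to 0.874, while ucr-2.2 over ucr-2.1 stays within 0.522 to 0.661.

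At the ends of the ratios of an autosomal gene to one on the X chromosome, the embryo-age measure was low where the ratios were highest, and high where they were lowest. It was 2.497 in double-mutant library 4 and 2.67 in edc-4 library 4, the lowest 2, and 4.86 in WT library 4 and 4.68 in edc-4 library 2, the highest 2. Between these ends the order was not kept throughout. The ratio of asb-1 to asb-2 was 0.551 in WT library 3, with the measure at 3.65. It was lower, at 0.453, in edc-3 library 4, with the measure at 3.35. In library 4 of edc-4, all 6 members on the X chromosome lay below their mean in the other edc-4 libraries, by a median of -0.35 on the log2 scale, beside -0.25 for the 1328 tested genes of the X chromosome with at least 5 CPM. In library 4 of the double mutant the medians were -0.34 and -0.18, with 5 of the 6 members below. In library 4 of WT they were 0.12 and 0.11, with 5 of 6 above. In library 4 of edc-3 they were -0.01 and -0.09, with 3 of the 6 members below and 3 above. Most members on the X chromosome thus moved in the direction of that chromosome's genes in library 4 of edc-4, the double mutant and WT, but not of edc-3. The fold changes of asb-1, asg-1, sdha-2 and ucr-2.3 with this measure as a covariate stand beside each gene above, and the ratios themselves were not refitted with it.

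Other mitochondrial gene groups of the nucleus gave changes of the size seen for the nuclear members, and 0 of their genes were called in any comparison. Of 26 further complex I subunits found by their current symbols, 9, 25 and 20 had fold changes above 0 in edc-3, edc-4 and the double mutant, with medians of -0.02, 0.09 and 0.05 on the log2 scale. Of 10 chain subunits and assembly factors that carry a name of the rule only in current annotation, such as atp-1, cox-4 and ucr-11, the medians were 0.01, 0.10 and 0.03. The 11 genes listed in the table as nduf, nduv, nuaf or lpd-5, of which 9 are also among those 26, had medians of -0.01, 0.06 and 0.05. For the 70 mitochondrial ribosomal proteins, which translate the organelle's mRNAs, the medians were -0.08, 0.09 and 0.03, and 65 of 70 were above 0 in edc-4.

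The 20 enzymes of the tricarboxylic acid cycle, which feeds the chain, had medians of 0.05, 0.10 and 0.02 in edc-3, edc-4 and the double mutant. The 16 measured genes that maintain and express the mitochondrial genome had -0.05, 0.05 and 0.04. The 15 genes of the mitochondrial stress response, with the chaperones hsp-6 and hsp-60, had -0.06, 0.07 and -0.09. The 16 tested carriers and outer membrane genes had 0.05, 0.13 and 0.10. None of these lists had a median further than 0.13 from 0, whereas the mitochondrially encoded members reached -0.45 in the double mutant. Among the embryo lists, muscle genes had medians of -0.09, -0.12 and -0.31 and early zygotic genes 0.26, 0.31 and 0.45, with 0 genes of either list called. Maternal genes had 0.15, 0.19 and 0.37, and 3 and 3 of 34 were called higher in edc-3 and with both alleles (chs-1, which makes eggshell chitin, with egg-1 and egg-2). The part of these shifts in the mitochondrial values was not tested.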

How the data were processed

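Total RNA from mixed-stage embryos was sequenced in 16 stranded libraries, and the deposited values are raw gene-level read counts, made by the authors with Trimmomatic, STAR and HTSeq on WBcel235, per the submitters' processing notes. Their versions, the strand setting and the annotation release were not given in the sources used here. Groups and numbers came from the labels. Counts were analysed in R 4.3.3 with edgeR 4.0.16: filterByExpr (minimum count 10, minimum total 15) kept 16880 genes, TMM scaled the libraries, and 1 quasi-likelihood fit with a mean per genotype gave 8 contrasts, with Benjamini-Hochberg adjustment over all tested genes. The common biological coefficient of variation was 0.193. Levels are TMM-scaled CPM. Per-kilobase values divide by exon length in the Ensembl release 115 annotation, and names of mitochondrial genes came from RefSeq by position on the same build. Log2 CPM used a prior count of 2, and medians over genes are of edgeR log2 fold changes.

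Named genes were all mitochondrial members, members past the threshold, the 3 highest and 3 lowest fold changes per contrast among members with at least 5 CPM, the highest and lowest nuclear member per kilobase of each complex, and related pairs. This took in 34 members. sdhd-1, sdha-1, mev-1, ucr-1, nuo-5, nuo-6, cco-1, cox-10, atp-3, atp-4 and atp-5 were named outside it, after their values were seen. The members and lists were chosen with earlier results of these data known, and the lists of genes by current symbol were added after the table was seen. In the annotation 5 nuclear members overlap a gene on the same strand, 11 overlap one on the other strand (1 gene does both) and 19 overlap none. The counts of any 2 libraries of a genotype gave a chi-square per degree of freedom between 9.997 and 178, above sampling noise. The code was run on simulated counts with known changes, drawn independently for each gene and without an effect of library number. That run does not show which changes of the mitochondrial mRNAs could be found. Alternatives were DESeq2 1.42.0, other scalings, no filter, other sets of libraries and covariates. No sequence is printed.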

Additional observations from a re-analysis of the deposited data

Results flagged for a closer look

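Of 200 sets of 4 libraries (46 members and 4 sums in 4 genotypes), 13 had 1 of 4 libraries far from the other 3 (its gap to the nearest over the group's range, above Dixon's 95% critical value), where chance alone gives about 1 in 20. In the double mutant, library 4 was high for asg-1 (90.7 CPM), cco-1 (197 CPM), cco-2 (286 CPM), nuo-6 (88.4 CPM), cox-17 (4.15 CPM), cyc-1 (277 CPM) and cyc-2.2 (0.304 CPM, a level of 11 counts). Library 5 of the double mutant was low for sdha-2, at 43.3 CPM. In edc-3, library 5 was low for asb-2 at 168 CPM and for ucr-2.2 at 58.6 CPM. In edc-4, library 2 was high for asg-2 at 50.6 CPM. In WT, library 3 was low for asb-2 at 146.1 CPM, and library 2 was low for the summed mitochondrial rRNAs at 41839 CPM. None of these 13 is a mitochondrially encoded mRNA. The causes were not tested.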

How the results depend on the processing

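The count of members called was 0 in all 8 comparisons and in every one of 157 refits, DESeq2 included, with a lowest adjusted p of 0.102. The mitochondrial minus nuclear median was not computed for DESeq2. Over the other alternatives it lay at -0.71 to -0.22 in the double mutant against WT, -0.57 to -0.26 against edc-3 and -0.37 to -0.05 against edc-4. It lay at -0.56 to -0.03 in edc-4 against WT and -0.49 to -0.21 for the edc-4 allele, so these ranges were below 0 throughout. For the double mutant against WT the sum-based log2 ratio, added after the data were seen, gave -0.35. The sign changed for edc-3 against WT without WT library 4 (0.24), WT library 5 (0.07) or edc-3 library 3 (0.08), with the replicate block (0.01), with the libraries numbered 4 left out (0.17) and with the sum-based ratio (0.04). It also changed for the interaction without WT library 2, WT library 3, edc-3 library 5 or edc-4 library 5 (0.02 to 0.12) and for the edc-3 allele without WT library 4 (0.02). Among 33 named members in the double mutant against WT, 12 of 21 nuclear ones changed sign with the embryo-age covariate and 9 without the libraries numbered 4, and 0 of 12 mitochondrial ones in either. The nuclear fold changes mostly lay nearer 0 in the main fit, so the counts do not show which genome's values moved more. Without the libraries numbered 4, 8 and 5 of 12 mitochondrial members changed sign in edc-3 and edc-4. The cause was not tested.

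For each tested gene, the genotype's mean log2 CPM was subtracted from each library. These deviations, not the levels themselves, were correlated between same-numbered libraries of different genotypes. The correlations ran from -0.493 to 0.656 over 24 pairs, 11 of them above 0.1. By the same deviations, 7 of 16 libraries correlated best with a library of their own number, and some such matches arise by chance. These values do not settle whether the numbers pair the samples, and the main fit left the number out. The order of the mitochondrial mRNAs by number is therefore part of the spread within genotypes in that fit. With the number as a replicate block, 0 members were called, 6 had an unadjusted p under 0.05 in the double mutant against WT, beside 3 without it, and the median difference was -0.40. The median log2 level of mitochondrial minus nuclear members in single libraries was also compared between same-numbered libraries 2 to 5. It differed by -0.47, -0.36, -0.40 and -0.69 for the double mutant minus edc-3 and by -0.19, -0.20, -0.13 and -0.30 minus edc-4. For the double mutant minus WT it differed by 0.21, -0.50, -0.81 and -0.65. Without the filter on low counts 7 members had such a p. P-values over 4 libraries a genotype miss small changes of the variable mitochondrial mRNAs, and ND2 and ND4L rest on under 100 counts a library.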
